A study of Rattus norvegicus with 8 samples.

Results

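Antigen presentation was followed through 3 genes of 32883 in the deposited table of the rat lower lumbar spinal cord. They were chosen by identifier: Cd74 (ENSRNOG00000018735), RT1-Da (ENSRNOG00000032844) and B2m (ENSRNOG00000017123). The series asked what a spinal cord injury does to gene expression in cord below the lesion that was itself left intact. All animals were Sprague Dawley rats, an outbred strain. The injured group was sampled 4 days after a hemisection (a cut across one side of the cord) at thoracic level 9, and the other group had no spinal cord injury. Each group had 4 libraries made with CEL-Seq2, which tags the 3' end of each captured polyadenylated RNA molecule with a random identifier so that amplified copies are counted once. The sources used here do not give the animals' age or sex, any sham operation, the side of the cord sampled or whether a library came from 1 animal.

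Cells display peptides to T cells on MHC molecules. Class I molecules sit on nearly all nucleated cells and consist of a heavy chain with beta-2-microglobulin, the light chain that B2m encodes. Class II molecules are paired alpha and beta chains made mainly by professional antigen-presenting cells. RT1-Da encodes an alpha chain of this kind in the rat MHC, which is called RT1. Cd74 encodes the invariant chain, which binds new class II molecules and guides them to the compartment where peptides are loaded. In the central nervous system, resting microglia make little class II, and activated microglia and infiltrating leukocytes can make much more.

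The promoters of the 3 genes are shown because class II genes and B2m are known to share promoter boxes, called X and Y, while B2m is also known to carry interferon and NF-kB sites. Each sequence is the 250 bases before the RefSeq start site (build GRCr8, plus strand), and capitals mark motif matches. The windows are chr18:56526956-56527205 for Cd74, chr20:4515165-4515414 for RT1-Da and chr3:129549080-129549329 for B2m.
Cd74: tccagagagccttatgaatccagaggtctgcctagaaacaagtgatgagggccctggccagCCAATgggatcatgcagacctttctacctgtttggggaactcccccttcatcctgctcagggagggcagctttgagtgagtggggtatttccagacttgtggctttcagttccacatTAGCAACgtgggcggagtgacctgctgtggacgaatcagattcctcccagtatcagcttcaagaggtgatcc
RT1-Da: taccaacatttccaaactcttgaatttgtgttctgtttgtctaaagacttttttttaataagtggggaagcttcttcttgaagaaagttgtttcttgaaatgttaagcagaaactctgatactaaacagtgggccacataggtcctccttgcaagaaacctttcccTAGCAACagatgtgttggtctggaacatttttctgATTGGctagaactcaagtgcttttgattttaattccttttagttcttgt
B2m: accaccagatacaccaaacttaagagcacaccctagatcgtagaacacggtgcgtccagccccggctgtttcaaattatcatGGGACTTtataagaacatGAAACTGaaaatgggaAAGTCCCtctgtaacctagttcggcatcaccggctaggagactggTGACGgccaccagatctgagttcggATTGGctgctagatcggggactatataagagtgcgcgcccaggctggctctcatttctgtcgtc

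Cd74 and RT1-Da both held the X box core TAGCAAC, which 2.88% of 33469 promoter windows of the same length also hold. All 3 genes held the Y box letters ATTGG on 1 of the strands, found in 34.0%. The X box core together with these letters, in any order, spacing and strand, occurred in 1.05% of windows. In RT1-Da the X box core began 84 bases before the start site, with the Y box at 49 bases. In Cd74 the X box core began at 72 bases. Its only ATTGG match lay farther upstream, at 189 bases and on the other strand, unlike the order in RT1-Da. B2m did not contain TAGCAAC, and its Y box began at 64 bases. Of these 3 windows, that of B2m alone held GAAACTG, from the interferon-stimulated response element, at 150 bases (4.97% of windows). It alone also held GGGACTT, from the NF-kB site, at 168 bases and on the minus strand at 134 bases (4.40%), and the CRE core TGACG at 89 bases (18.2%). The gamma-activated site TTCNNNGAA was in 7.67% of windows and in none of these 3. Both strands were searched, the matches of the 6 motifs do not overlap in these windows, and the letters were chosen with the sequences in view. A match is a description of the sequence and not a measured binding site. Other spellings of these sites, that of NF-kB among them, were not searched. A window without a match, such as that of Cd74 or RT1-Da, may therefore still hold such a site.

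Depth was low and uneven, from 119808 to 405537 molecules per library. In each group the library numbered 3 had the fewest molecules. The most abundant genes met a ceiling, with a top count of 3989 to 4080 in all 8 libraries where 6-base identifiers would allow 4096. The 10 most abundant genes summed to 28367 to 37010 molecules, a narrower range than that of the totals. The lowest sums were in the libraries numbered 3 and the highest in the deepest library. The share of these genes was larger in the libraries numbered 3 (24.6% and 18.5%, against 8.88% to 13.3%). Uninjured replicate 3 had the highest level of all 8 libraries in 19.4% of the 4159 genes tested, against 8.73% to 14.8% for the others. The fitted change of B2m and the ratios of the class II genes to B2m are therefore given with and without these libraries. Levels are in CPM, counts relative to the library's TMM-scaled size. In this scale 3 molecules correspond to 7.20 CPM in the deepest and 34.8 CPM in the shallowest library.

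The 2 class II genes were at the edge of detection in both groups, and B2m was among the most abundant genes. Across the 8 libraries Cd74 averaged 4.75 molecules, RT1-Da 5.88 and B2m 512.5. By mean count they ranked 5702, 5156 and 58 among the 12968 genes with any molecule. A molecule is counted once at its 3' end, so these counts carry no length term, but capture and read assignment can still differ between genes.

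Cd74, the invariant chain, showed 6, 9, 2 and 4 molecules in uninjured replicates 1 to 4. Injured replicates 1 to 4 showed 4, 8, 2 and 3 molecules. The groups overlapped, and replicate 2 was the highest library of each group. In CPM the uninjured libraries stood at 15.4, 39.7, 23.2 and 9.60, and the injured ones at 11.1, 21.4, 15.6 and 12.7. The mean was 22.0 ± 13.04 CPM without injury and 15.2 ± 4.55 CPM after it (SD, n = 4 each). Counting error alone was large. Uninjured replicate 2, with the highest value, had an exact 95% Poisson interval of 18.1 to 75.3 CPM, and injured replicate 1, with the lowest of the injured, had 3.01 to 28.3 CPM.

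**Figure D1:**
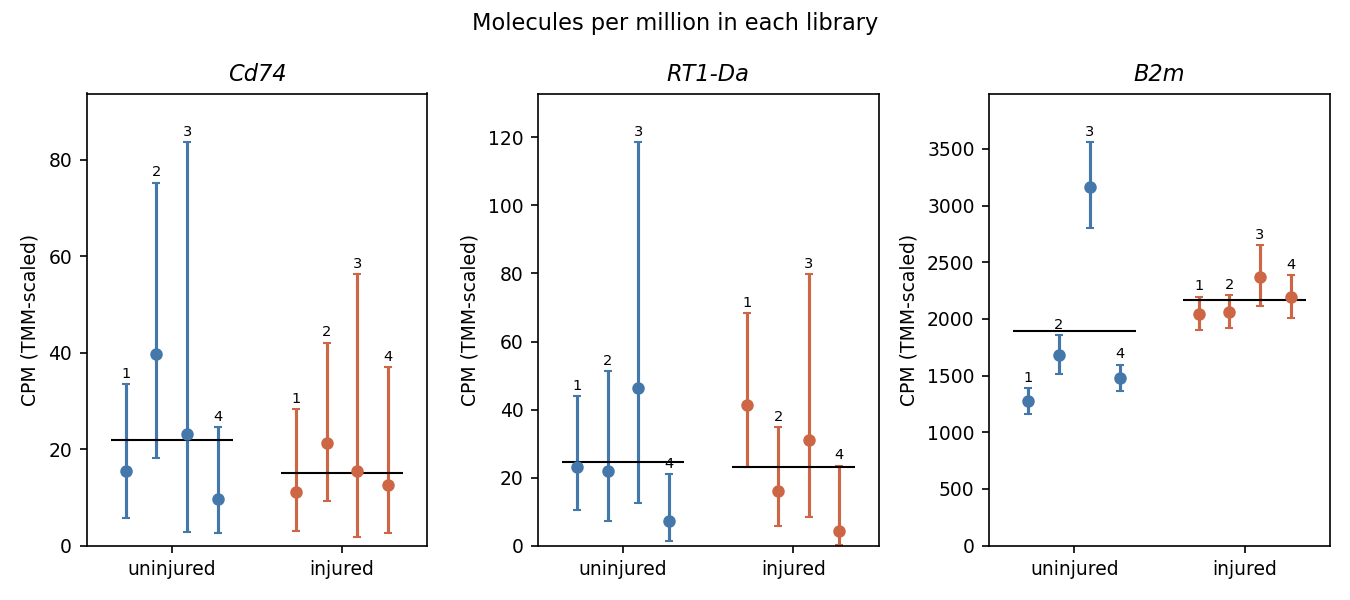
Level of Cd74, RT1-Da and B2m in each library, in CPM on linear axes that start at 0. Points are libraries labelled by replicate number, bars are exact 95% Poisson intervals (counting error only) and lines are group means. The intervals of Cd74 and RT1-Da overlap widely between groups, while the injured B2m values lie between 2044 and 2369 CPM and the uninjured ones between 1272 and 3163.

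RT1-Da, the class II alpha chain, was as scarce. Uninjured replicates 1 to 4 had 9, 5, 4 and 3 molecules, and injured replicates 1 to 4 had 15, 6, 4 and 1. The injured group thus held both the highest and the lowest count. Levels were 24.7 ± 16.2 CPM without injury and 23.2 ± 16.4 CPM after it (SD, n = 4 each), with a range of 7.20 to 46.3 CPM in the uninjured libraries and 4.22 to 41.4 CPM in the injured. The 15 molecules of injured replicate 1 had an exact 95% Poisson interval of 8.40 to 24.7 molecules, and the single molecule of injured replicate 4 one of 0.0253 to 5.57. RT1 genes form families of similar sequence and vary between rat strains, so reads of RT1-Da in an outbred strain may have been lost or assigned to a relative, which was not tested.

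Cd74 and RT1-Da did not pass the filter on low counts, which kept 4159 genes, and were tested in a fit of all 12968 genes with a molecule. Neither passed. In that fit 94 genes were higher after injury (0.725% of those tested) and 4 were lower (0.0308%). For Cd74 the fitted log2 fold change was -0.36 ± 0.57 (standard error; edgeR adjusted p = 0.934), a fold of 0.781 with a 95% interval of 0.359 to 1.70. For RT1-Da it was 0.23 ± 0.52 (standard error; edgeR adjusted p = 0.96), a fold of 1.17 with a 95% interval of 0.577 to 2.37. These limits depended on single libraries. The upper limit of Cd74 moved from 1.70 to 2.68 without uninjured replicate 2 and to 2.05 without injured replicate 1. The lower limit of RT1-Da moved from 0.577 to 0.309 without injured replicate 1 and to 0.422 without uninjured replicate 4, and was 0.391 with DESeq2. Changes of 2-fold in either direction were therefore not firmly bounded for these genes.

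Summed over the libraries of a group, Cd74 gave 21 molecules without injury and 17 after it, and RT1-Da gave 21 and 26. Relative to the scaled library sizes, the injured to uninjured ratio was 0.822 for Cd74 (exact 95% binomial interval 0.407 to 1.64) and 1.26 for RT1-Da (0.681 to 2.35), counting error only. The direction for RT1-Da was not the same in every summary. The fit put it slightly higher after injury, while the difference of mean log2 CPM was -0.16. That difference had p = 0.857 in an exact two-sided permutation test, and the same test gave p = 0.486 for Cd74 (difference -0.36). The smallest p that 4 against 4 libraries allow is 0.0286. Without injured replicate 1, the library with 15 molecules, the fitted log2 fold change of RT1-Da was -0.40 (edgeR adjusted p = 0.937). Without uninjured replicate 2, the library with 9 molecules of Cd74, that of Cd74 was 0.12 (edgeR adjusted p = 0.974).

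B2m, the class I light chain, was measured with far more molecules. Uninjured replicates 1 to 4 had 495, 381, 273 and 615 molecules, and injured replicates 1 to 4 had 740, 772, 304 and 520. As CPM these were 1272, 1679, 3163 and 1476 without injury and 2044, 2063, 2369 and 2193 after it. All 4 injured libraries lay above 3 of the 4 uninjured ones, and uninjured replicate 3, the shallowest library, lay above all the others. The means were 1897 ± 860 CPM and 2167 ± 149.7 CPM (SD, n = 4 each).

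Over all 8 libraries B2m did not pass the test. Its log2 fold change was 0.20 ± 0.28 (standard error; edgeR adjusted p = 0.991), a fold of 1.15 with a 95% interval of 0.764 to 1.74. In this fit 41 of 4159 genes (0.986%) were higher after injury and 0 (0%) were lower. Before adjustment, the edgeR p fell below 0.05 for 222 genes with a rise after injury and for 104 with a fall. Neither count allows for the number of genes tested, so these are not calls. At the adjusted threshold DESeq2 called 49 genes higher and 2 lower, and limma-voom called 46 higher and 1 lower. B2m ranked 2002 of 4159 by p, and 25.9% of genes had a larger log2 fold change. The median over all tested genes was -0.01. An exact two-sided permutation test of its log2 CPM gave a difference of 0.28 with p = 0.4. The summed counts, 1764 without injury and 2336 after it, gave a scaled ratio of 1.35 with an exact 95% binomial interval of 1.26 to 1.43, which leaves out the spread between libraries. In bulk tissue, more cells of a type and more RNA per cell cannot be told apart.

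As a share of all molecules in a library, B2m varied less among injured than among uninjured libraries, a difference in spread that was not tested. The 4 injured libraries had 0.206%, 0.204%, 0.199% and 0.202%, a coefficient of variation of 1.58%. The uninjured libraries had 0.132%, 0.160%, 0.228% and 0.152% in replicates 1 to 4, a coefficient of variation of 24.8%. Counting error alone amounts to 3.60% to 5.74% in single injured libraries and 4.03% to 6.05% in uninjured ones. The injured spread of 1.58% was thus below counting error, and its small size cannot be read as uniform levels. In CPM the coefficients were 6.91% after injury and 45.3% without it. Uninjured replicate 3 was again the highest of the 8, but by less than in CPM, since its TMM factor of 0.764 raises its values.

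**Figure D2:**
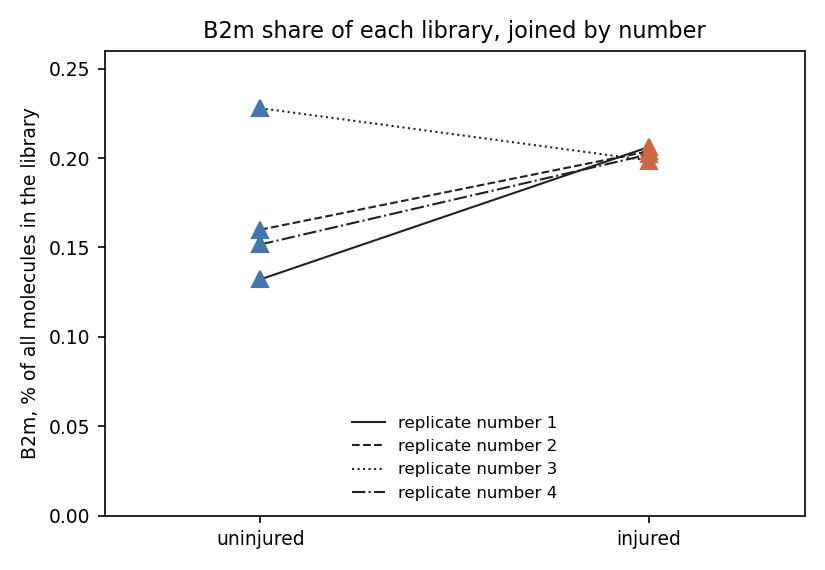
Share of B2m among all molecules of a library, in percent on an axis that starts at 0, with lines joining the uninjured and injured libraries of the same replicate number. Injured shares lie between 0.199% and 0.206%, and the line for number 3 is the one that falls.

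By replicate number, the injured to uninjured ratio of B2m in CPM was 1.61, 1.23, 0.749 and 1.49 for numbers 1 to 4. The numbers come from the sample titles, and same-numbered libraries were taken as pairs from a correlation check that was weakest for number 3 (0.17, against at most 0.24 between different numbers). With the number as a block, the log2 fold change of B2m was 0.30 ± 0.19 (standard error; edgeR adjusted p = 0.542), in a fit that called 2.26% of genes higher and 0.385% lower. Within numbers 1 and 2 alone the log2 fold change was 0.49 (edgeR adjusted p = 0.446), and within numbers 3 and 4 alone it was -0.023 (edgeR adjusted p = 0.9995). Of the 8 libraries, uninjured replicate 3 moved the estimate most when left out. Without it the log2 fold change was 0.55 ± 0.21 (standard error; edgeR adjusted p = 0.368), a fold of 1.46, where 1.57% of genes were called higher and 0.0638% lower.

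Without both libraries numbered 3, the uninjured libraries stood at 1475 ± 203 CPM and the injured at 2100 ± 81.0 CPM (SD, n = 3 each), and the groups did not overlap. Every injured library lay above every uninjured one in 9.02% of the 4159 genes in these 6 libraries, and in 3.08% with all 8, B2m not among the latter. The log2 fold change was 0.51 ± 0.21 (standard error; edgeR adjusted p = 0.454), a fold of 1.42 with a 95% interval of 1.03 to 1.97, where 1.31% of genes were called higher and 0.0215% lower. The exact two-sided permutation test gave p = 0.1, the smallest that 3 against 3 libraries allow. With the replicate block added, a combination chosen after seeing the data, the log2 fold change was 0.52 (standard error 0.13) and B2m passed (edgeR adjusted p = 0.00789). That fit called 5.84% of genes higher and 2.38% lower. The call for B2m thus rests on leaving out the pair that ran the other way. The part that the low depth of uninjured replicate 3 has in this was not tested.

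**Figure D3:**
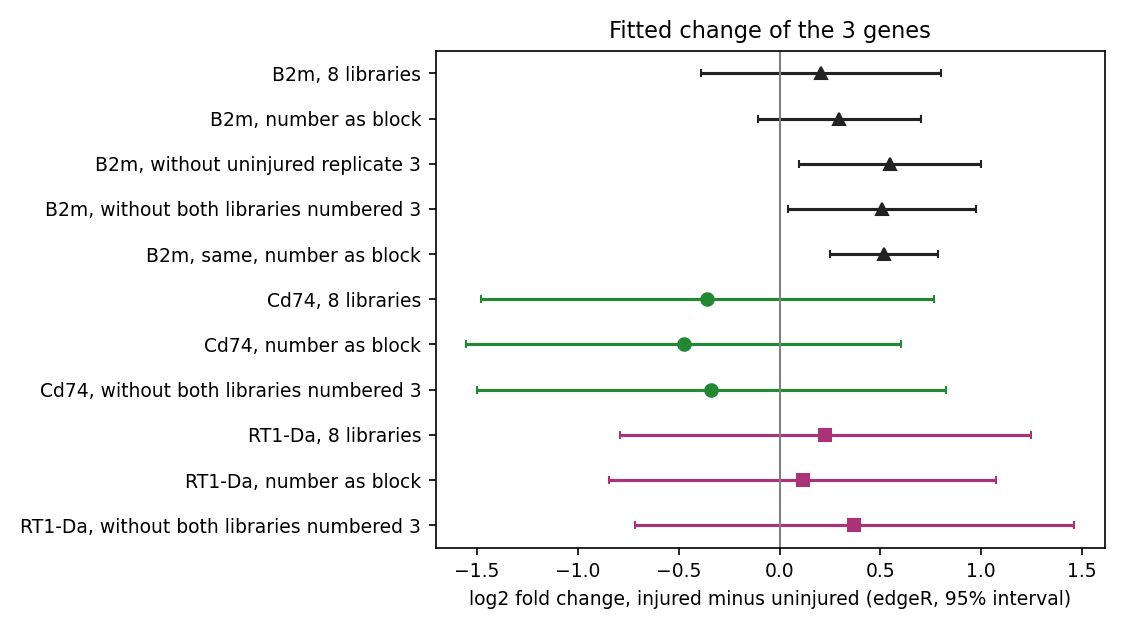
Fitted log2 fold change (injured minus uninjured) of the 3 genes, with 95% intervals from edgeR, over all 8 libraries, with the replicate number as a block and with libraries left out. The B2m estimate moves from 0.20 to about 0.5 once uninjured replicate 3 is left out, while the intervals of Cd74 and RT1-Da include 0 in each fit shown.

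Class II was set against class I within each library, which needs no scaling between libraries. Per 1000 B2m molecules, Cd74 had 12.1, 23.6, 7.33 and 6.504 molecules in uninjured replicates 1 to 4 and 5.41, 10.4, 6.58 and 5.77 in injured replicates 1 to 4. The ratio was lower after injury in 4 of 4 pairs of the same number, though the groups overlapped. Cd74 itself did not fall in every pair. In number 3 both libraries held 2 Cd74 molecules, and in number 4 Cd74 rose from 9.60 to 12.7 CPM. The mean log2 ratio differed by -0.64 (exact two-sided permutation p = 0.2, Benjamini-Hochberg adjusted over the 3 ratios 0.6), from -6.36 ± 0.77 to -7.00 ± 0.38 (SD, n = 4 each). An exact sign-flip test over the 4 pairs gave p = 0.125, the smallest it allows. Without both libraries numbered 3 the mean log2 ratio differed by -0.80 (exact permutation p = 0.2, adjusted 0.6, smallest possible p 0.1).

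RT1-Da per 1000 B2m molecules stood at 18.2, 13.1, 14.7 and 4.88 without injury and at 20.3, 7.77, 13.2 and 1.92 after it. Its mean log2 ratio differed by -0.45 (exact permutation p = 0.629, adjusted 0.8286). Without both libraries numbered 3 the difference was -0.54 (exact permutation p = 0.7, adjusted 0.9). The ratio was lower in 3 of 4 pairs and higher in number 1, where injured replicate 1 held its 15 molecules. The log2 ratio of Cd74 to RT1-Da differed by -0.19 (exact permutation p = 0.8286, adjusted 0.8286), with 2 pairs lower, 1 higher and 1 without change. With 4 against 4 libraries the smallest possible exact permutation p is 0.0286. Adjusted over the 3 ratios, it falls below 0.05 only if another ratio also reaches it. A change of class II that differed from that of class I was therefore not resolved with these counts and this number of libraries. Neither was a difference between the 2 class II genes.

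**Figure D4:**
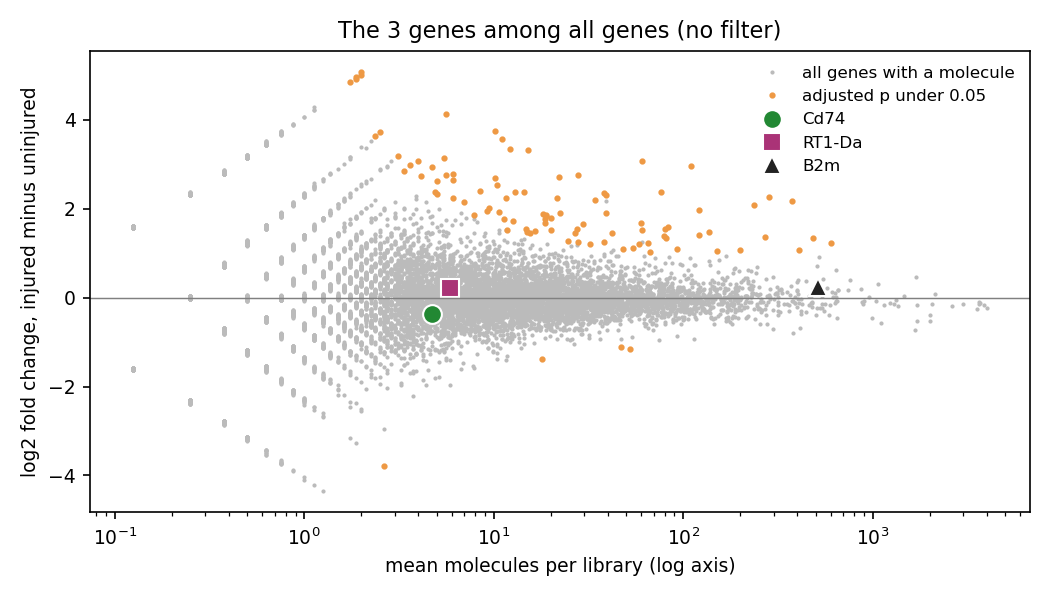
Fitted log2 fold change (injured minus uninjured) against mean molecules per library (log axis) for the 12968 genes with a molecule, with no filter. Orange points passed an adjusted p under 0.05. Cd74 and RT1-Da lie at about 5 molecules per library and B2m at 512.5, all 3 among the genes that did not pass.

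The tested gene whose levels followed B2m most closely over the 8 libraries was ENSRNOG00000019387, with a Pearson correlation of 0.98 in log2 CPM, followed by ENSRNOG00000028814 with 0.97. With group means removed the correlations were 0.99 and 0.97, and without both libraries numbered 3 they were 0.997 and 0.951. Both are scarce, with 9.38 and 11.9 molecules per library on average, and both were highest in uninjured replicate 3, at 81.1 and 104 CPM. Neither passed the test (log2 fold changes 1.08 and 0.54, edgeR adjusted p = 0.615 and 0.921). They were picked as the most similar of the 4159 genes, over few libraries that share depth and scaling, and the correlations are a description. Cd74 and RT1-Da failed the filter on low counts, and no such comparison was made for them.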

How the data were processed

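The authors deposited raw molecule counts for each Ensembl gene, and their totals differ between columns. HISAT2 2.0.4, HTSeq 0.6.0 and the build Rnor_6.0 are named in the submitters' processing notes. The sources used here do not say how identifiers were collapsed, which annotation release was used or how reads were filtered. The pairing of the 3 identifiers with symbols came with the gene selection and could not be checked, since the reference table used here holds no Ensembl identifier for its 47357 genes. For the same reason the pathway and cell type marker lists (188 entries) and the check of the tissue label were not run.

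The test was edgeR 4.0.16 (R 4.3.3): filterByExpr (minimum count 10, minimum total 15), TMM, robust quasi-likelihood F test, two-sided, Benjamini-Hochberg over all genes, threshold 0.05. Class II genes failed the filter and were fitted with every gene that had a molecule. Confidence intervals and standard errors came from the fitted value and F statistic. The main fit was tested on simulated counts with known changes, for genes that pass the filter, with 8 libraries and no block. The fit without a filter and the fits with a block or fewer libraries were not tested in this way. The alternative tools were limma-voom (limma 3.58.1) and DESeq2 1.42.0. Within-library ratios used a pseudocount of 0.5. CPM used the molecules of the tested genes times the TMM factor. For correlations, 3 was the prior count of log2 CPM. Promoter windows are from RefSeq (GRCr8), and all 3 genes matched.

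Deviations from the group mean correlated across genes between same-numbered libraries (0.39, 0.36, 0.17 and 0.45 for numbers 1 to 4). Between different numbers the correlations ranged from -0.39 to 0.24. The titles' numbers were therefore taken as pairs, although number 3 did not exceed that range and its pairing is not shown. Deviations cancel within a group, which by itself lowers correlations between different numbers when same-numbered ones are positive. No label states this pairing. P-values reflect the spread among these samples, which may be technical. Totals of 119808 to 405537 molecules limit precision, and counting intervals cover counting error only. The genes named are the 3 members and the tested genes most correlated with B2m. Members, lists and tests were chosen with earlier results of these data known.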

Additional observations from a re-analysis of the deposited data

How the results depend on the processing

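The number of genes called (41 of 4159 tested) became 98 of 12968 with no filter on low counts and 110 of 4159 with the replicate block. Without both libraries numbered 3 it was 62 of 4660, and 383 of 4660 with the block as well (added after seeing the data). Numbers 1 and 2 alone gave 86 of 4768, and numbers 3 and 4 alone gave 3 of 3226. The number called ranged from 23 to 77 when 1 library was left out, with 3926 to 4705 genes tested. The log2 fold change of B2m passed only without both libraries numbered 3 and with the replicate block (0.52) and changed sign in numbers 3 and 4 alone (-0.023). With 1 library left out it ranged from 0.05 to 0.55. Numbers 3 and 4 alone also turned the sign of Cd74 (0.086) and RT1-Da (-0.19). Leaving out 1 library gave -0.68 to 0.12 for Cd74 and -0.40 to 0.55 for RT1-Da, and for the log2 ratios -0.89 to -0.30 (Cd74 to B2m), -0.84 to 0.12 (RT1-Da to B2m) and -0.69 to 0.31 (Cd74 to RT1-Da). Neither class II gene nor any ratio passed in an alternative that was run. For the ratios, several of these tests could not have passed 0.05. The smallest possible exact permutation p was 0.0571 with 1 library left out and 0.1 without both libraries numbered 3. For the exact sign-flip test over pairs it was 0.125. Those alternatives therefore say nothing on whether a ratio call is stable. With the replicate block the log2 fold changes were 0.30 (B2m), -0.48 (Cd74) and 0.12 (RT1-Da), and the block alone changed no call for these genes. With 20 molecules required in 4 libraries the class II genes could not be tested, and DESeq2 gave Cd74 no adjusted p. What made the results differ between the alternatives was not tested. Correcting for repeated identifiers, if 6 bases long, raises B2m by 3.66% to 10.8% and moved its log2 fold change to 0.23.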
